A study of Mus musculus with 8 samples.

Results

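The comparison of induced GLI1 with control at day 7 (D7) rested on 2 ATAC-seq peak lists from mouse embryonic stem cells that had been differentiated in culture and are labelled cardiac progenitors. ATAC-seq marks open chromatin by letting the Tn5 transposase insert sequencing adapters into accessible DNA. The D7 GLI1 list came from 3 libraries of cells given 500 ng/ml doxycycline for 48 hours, from day 5 to day 7. The D7 control list came from 3 libraries of untreated cells harvested at day 7. Both groups were of the GLI1-FTA line in the A2Lox.cre strain, an embryonic stem cell background made for inserting a gene under doxycycline control, so the controls carried the line's construct too. No group received doxycycline without the GLI1 construct, so doxycycline and GLI1 cannot be told apart. A further 2 untreated libraries from day 5 (D5) make up the 8 libraries of the series, and their list served only to mark which regions were already open. Whether replicates came from separate differentiations, and whether the line was a single clone, is not given in the sources used here. The D7 control list was matched to its group only through its file label, as the counterpart of the doxycycline list.

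Overlapping peaks were merged within each list on chromosomes 1 to 19, and regions of both lists that overlapped by at least 1 base were joined. This gave 52983 joint regions, out of 71144 merged regions in all 3 lists with X and Y included. Of these, 24346 were shared by both D7 lists, 16533 (31.2% of joint regions) were found with GLI1 only, and 12104 (22.8%) in control only. Each group has 1 pooled list, so there was no spread between replicates and no difference below has a test or a replicate check. The authors' fold enrichment of a peak is its read pileup over the background, and in both D7 lists it was a whole multiple of 1 step (to within 5.08e-05 of a step), so the reads at each summit could be recovered. A ratio of folds is printed with an exact 95% interval from these reads, which covers counting error only.

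Hedgehog ligands bind the receptor Patched 1, which releases Smoothened and lets the GLI transcription factors act on their target genes. GLI1 is an activator in this family and is itself a target of the pathway, as are Ptch1 and Hhip, whose products restrain the signal. Forkhead genes such as Foxf1 and Foxf2 are known Hedgehog targets in mesenchyme, and Hedgehog signalling acts on the second heart field, whose progenitors lengthen the early heart.

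The promoter sequences below come from stronger regions at forkhead targets of Hedgehog signalling and from a weaker region at the co-receptor gene Gas1. Gas1 also had a stronger region at its other end, described below. Each sequence is the 250 bases before a transcript start, 5′ to 3′, from RefSeq on GRCm38.p6, the assembly of mm10. Capitals mark the forkhead core sequence GTAAACA, or TGTTTAC on the other strand, which was present in only 1 of these 4. Foxd1 is at chr13:98353995-98354244 on the + strand and Foxf2 at chr13:31625566-31625815 on the + strand. Fendrr, a noncoding RNA gene beside Foxf1 whose start lies in the same region, is at chr8:121083111-121083360 on the − strand. Gas1 is at chr13:60177536-60177785 on the − strand.
Foxd1: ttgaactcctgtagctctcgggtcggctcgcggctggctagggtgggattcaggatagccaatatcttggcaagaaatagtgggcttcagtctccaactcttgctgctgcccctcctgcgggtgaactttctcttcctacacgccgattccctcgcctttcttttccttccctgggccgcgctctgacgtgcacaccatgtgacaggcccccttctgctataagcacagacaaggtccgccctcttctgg
Foxf2: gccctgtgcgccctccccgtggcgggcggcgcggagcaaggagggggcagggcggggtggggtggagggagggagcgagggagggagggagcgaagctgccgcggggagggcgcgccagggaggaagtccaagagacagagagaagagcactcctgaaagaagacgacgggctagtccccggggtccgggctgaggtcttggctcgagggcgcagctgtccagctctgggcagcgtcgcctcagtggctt
Fendrr: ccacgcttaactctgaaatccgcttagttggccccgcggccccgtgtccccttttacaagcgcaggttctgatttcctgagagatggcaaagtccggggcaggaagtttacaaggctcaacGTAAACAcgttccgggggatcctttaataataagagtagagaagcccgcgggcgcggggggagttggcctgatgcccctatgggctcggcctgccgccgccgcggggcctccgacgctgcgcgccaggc
Gas1: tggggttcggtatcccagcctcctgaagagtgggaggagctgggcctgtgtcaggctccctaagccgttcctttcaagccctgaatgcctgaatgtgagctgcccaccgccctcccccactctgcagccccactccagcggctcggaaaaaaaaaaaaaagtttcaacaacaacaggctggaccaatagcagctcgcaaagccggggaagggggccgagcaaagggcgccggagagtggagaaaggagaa

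The fold of the region with the Foxd1 promoter was 6.84 in control and 36.9 with GLI1, and that of the Foxf2 promoter region was 11.3 and 32.6. The region over the starts of Fendrr and Foxf1 had 10.8 in control and 50.4 with GLI1. The Gas1 promoter region had 70.0 in control and 34.4 with GLI1, the opposite direction.

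The label of the cells was checked against regions within 2 kb of 6 cardiac progenitor marker genes. All 6 had a region in the control list and 4 of 6 had one with GLI1. The same count over all genes was not made. The highest folds at Isl1 were 28.1 in control and 40.4 with GLI1, at Mef2c 19.1 and 26.2, and at Gata4 9.36 and 13.3. Hand2 had 2 regions in each list but 0 shared. Its highest folds, 3.78 in control and 5.79 with GLI1, thus came from different regions. Nkx2-5 and Tbx5 had regions in control only, with folds of 3.24 and 4.32. Of 4 cardiomyocyte genes, all had a region in control and 2 with GLI1, and Tnnt2 (2.52) and Myh6 (3.42) had one in control only. Pou5f1, Nanog and Zfp42, which mark pluripotent cells, had no region in either list, and the fourth marker, Esrrb, had 6.84 in control and 10.7 with GLI1. Summed over the 6 cardiac progenitor genes, the highest folds were 67.9 in control and 85.7 with GLI1. Summed over 4 marker genes each, those of cardiomyocyte markers were 29.5 and 22.1, of endoderm markers 15.8 and 34.2, of neural markers 41.9 and 31.6, of endothelial markers 47.2 and 44.9, of paraxial mesoderm markers 39.2 and 34.4, and of fibroblast or smooth muscle markers 26.8 and 33.2. The highest control fold of 1 gene was 28.1 among cardiac progenitor, 23.2 among endothelial and 23.2 among neural markers, so these markers do not set the label apart. Among the endoderm markers Foxa2, also a Hedgehog target, had the highest folds, 8.46 in control and 20.4 with GLI1, and Afp had no region. These data come from bulk cells, so a change in the share of a cell type and a change within cells cannot be told apart. The background was 4.56 reads per base in control and 4.70 with GLI1, 3.11% higher.

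Among shared regions, more had a lower than a higher fold past 2-fold with GLI1, although the set as a whole was slightly higher. A region is called stronger where its highest fold with GLI1 was at least 2 times that in control, and weaker where it was at most the inverse of that. Of 24346 shared regions, 1016 (4.17%) were stronger and 1801 (7.4%) were weaker. The median log2 ratio of GLI1 over control was 0.09, and 58.6% of shared regions had the higher fold with GLI1. The middle 95% of ratios ran from 0.320 to 2.29. Stronger regions had a median fold of 4.50 in control and 12.5 with GLI1, and weaker regions 14.0 and 4.56. The log2 ratios nearest the limits were 1.00017 inside and 0.999859 outside for stronger, and −1.00074 inside and −0.999834 outside for weaker regions.

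**Figure D1:**
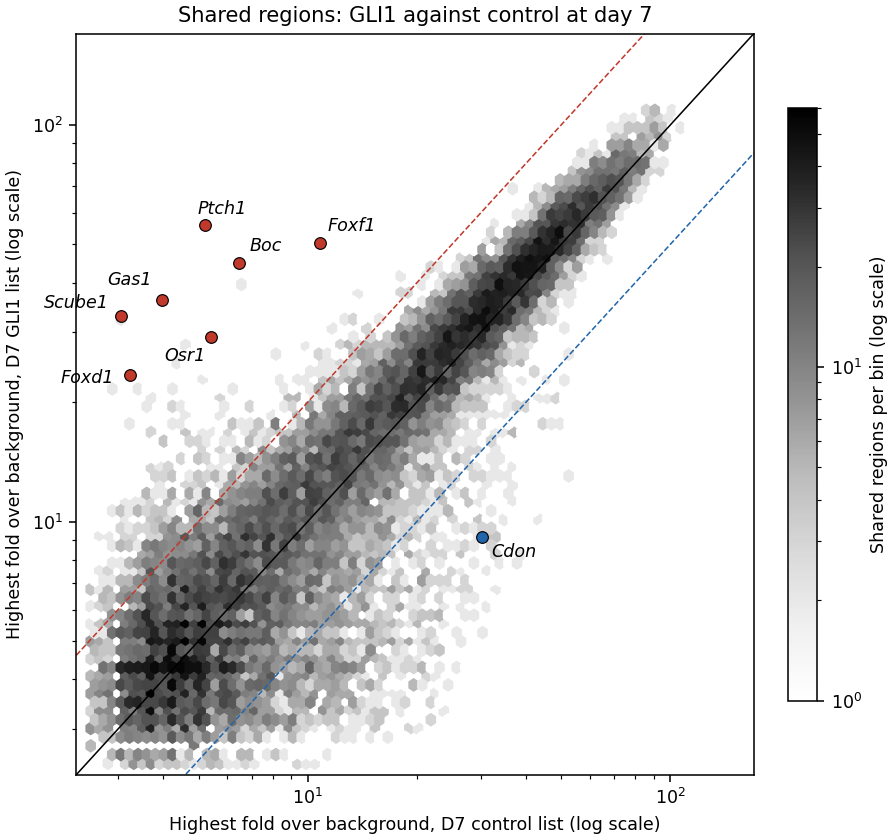
Highest fold over background of the 24346 shared regions in the D7 control list (horizontal, log scale) and the D7 GLI1 list (vertical, log scale), with grey for the number of regions per bin, a black line of equal folds and dashed lines at 2-fold. Coloured points are single regions of 8 Hedgehog-related genes; that of Ptch1 had 5.22 in control and 55.8 with GLI1, and that of Cdon 30.2 and 9.13.

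Regions found in 1 list only went the other way in number. Counting only folds that reached 2 times the smallest value seen in the opposite list, 3851 were found with GLI1 only and 2964 in control only, a ratio of 1.30. Over all folds the ratio was 1.37, and with both lists held to the same number of peaks it was 1.05 (13497 with GLI1 only and 12831 in control only). Among shared regions weaker outnumbered stronger by 1.77 times. Together, 4867 regions were higher with GLI1 and 4765 lower, a ratio of 1.02. With the larger fold at 10 or more, weaker outnumbered stronger shared regions 1352 (9.32%) to 675 (4.65%), GLI1-only outnumbered control-only regions 636 to 326, and the totals were 1311 higher and 1678 lower. A region could be shared only if it passed the peak caller in both lists, so the largest differences at low folds lie among the regions of 1 list.

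Width moved with the fold. With GLI1, 1192 shared regions (4.9%) were at least 2-fold wider and 1259 (5.17%) at least 2-fold narrower, an order that turned at a stricter q, with only peaks of −log10 q at least 5 (874 and 864), and with equal list lengths (1176 and 1116). Of the stronger regions, 407 (40.1%) were also at least 2-fold wider and 0 were narrower. Of the weaker regions, 719 (39.9%) were narrower and 0 were wider. Among the 21529 regions between the limits, 3.65% were wider and 2.51% narrower. The median width of stronger regions was 421 bp in control and 839 bp with GLI1, and that of weaker regions 842 and 440 bp. Across the 24346 shared regions Pearson's r between log2 ratios of fold and width was 0.64, a description only, since both come from the same pileup.

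Changes past 2-fold were most frequent at middle folds. Shared regions were grouped by the geometric mean of their folds in both lists. At 6 to 10, 8.79% of 4867 regions were stronger and 16.4% weaker, and at 10 to 20 the shares were 5.08% and 10.04%. At 40 to 200, 0 of 3076 regions were stronger and 6 were weaker. Below 4, the SD of the log2 ratio was 0.43 against 0.47 from read counting alone, but regions there were shared only if both folds passed the peak caller, which limits the spread. At 6 to 10 the SD was 0.92 against 0.33 from counting, and at 40 to 200 it was 0.22 against 0.12. Spread between libraries is not part of the counting SD and was not measurable here.

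**Figure D2:**
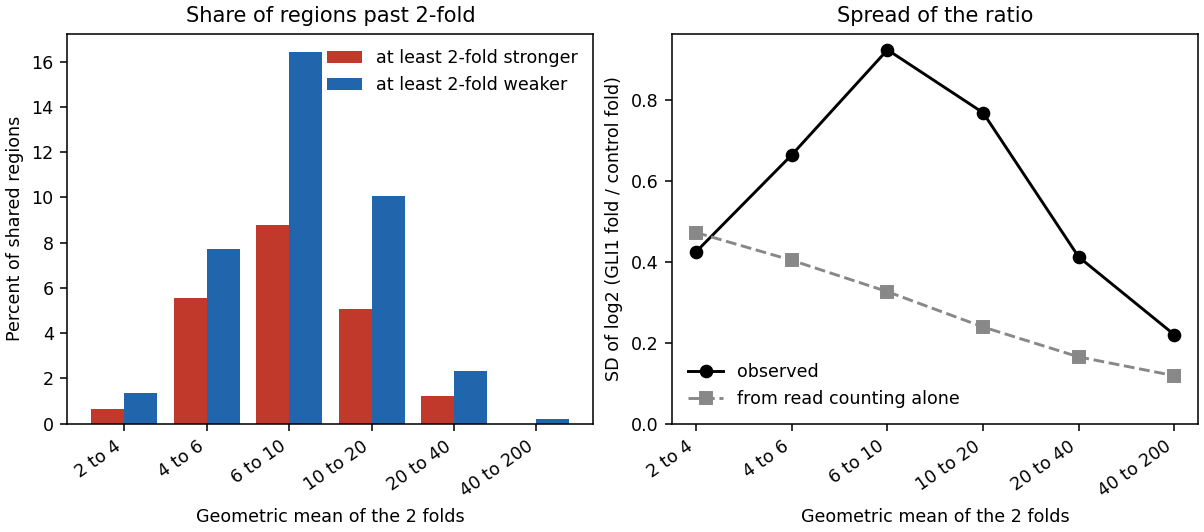
Left, percent of shared regions at least 2-fold stronger (red) or weaker (blue) with GLI1, by the geometric mean of both folds; right, the observed SD of the log2 ratio (circles) and the SD from read counting alone (squares) for the same groups. Both shares peak at a mean fold of 6 to 10, where the observed SD is 0.92 and the counting SD 0.33.

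Regions past 2-fold lay at gene ends less often than the other shared regions. Within 1 kb of an end of a protein-coding gene lay 19.7% (95% Wilson interval 17.4 to 22.2) of stronger regions, 5.11% (4.18 to 6.22) of weaker regions and 48.6% (47.9 to 49.2) of those between the limits. By transcript starts of RefSeq, which were at hand for all but chromosome 18, the shares were 20.4%, 5.83% and 47.4%. Over 100 kb from any gene lay 10.1% of stronger, 16.7% of weaker and 4.47% of the other shared regions. The median distance to a gene end was 16261 bases for stronger, 31358 for weaker and 1187 for the other regions. These positions were not split by mean fold, with which the share of regions past 2-fold varied, so position and strength are not separated here.

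Stronger regions had been open at day 5 more often than weaker ones. The D5 list overlapped 47.5% (44.5 to 50.6) of stronger, 19.4% (17.7 to 21.3) of weaker and 69.2% of the other shared regions. Among regions over 1 kb from a gene end with a mean fold of 6 to 10, the shares were 35.9% (31.1 to 41.0) of stronger, 16.8% (14.3 to 19.6) of weaker and 47.9% of the others. At 4 to 6 they were 36.3%, 17.1% and 34.3%, and at 10 to 20 they were 45.5%, 21.5% and 65.5%. Among GLI1-only regions 13.3% overlapped D5 regions, and among control-only regions 8.83%. The D5 list came from fewer libraries and was called differently, and its part in these shares was not tested.

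Of the 17 gene lists, Hedgehog targets had the largest share of stronger regions. Regions were assigned to the nearest protein-coding gene within 100 kb, which says nothing on which gene a region acts. Over all genes 22979 shared regions were so assigned, with 3.97% stronger and 6.53% weaker and a median log2 ratio of 0.10. A further 14248 regions with GLI1 only and 10205 in control only were assigned. List counts below are of shared regions unless stated. The list of 30 Hedgehog target genes had 94 shared regions, of which 19 (20.2%) at 14 genes were stronger and 5 (5.32%) at 3 genes weaker, with a median of 0.26. Without Gli1, the induced gene, 17 of 92 were stronger. Forkhead genes held much of this: 7 forkhead genes in the list had 11 stronger (52.4%) and 0 weaker of 21 regions with a median of 1.23. The remaining 23 targets had 8 stronger (11.0%) and 5 weaker (6.85%) of 73, with a median of 0.08. Beyond shared regions, the whole target list had 90 regions with GLI1 only and 28 in control only.

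**Figure D3:**
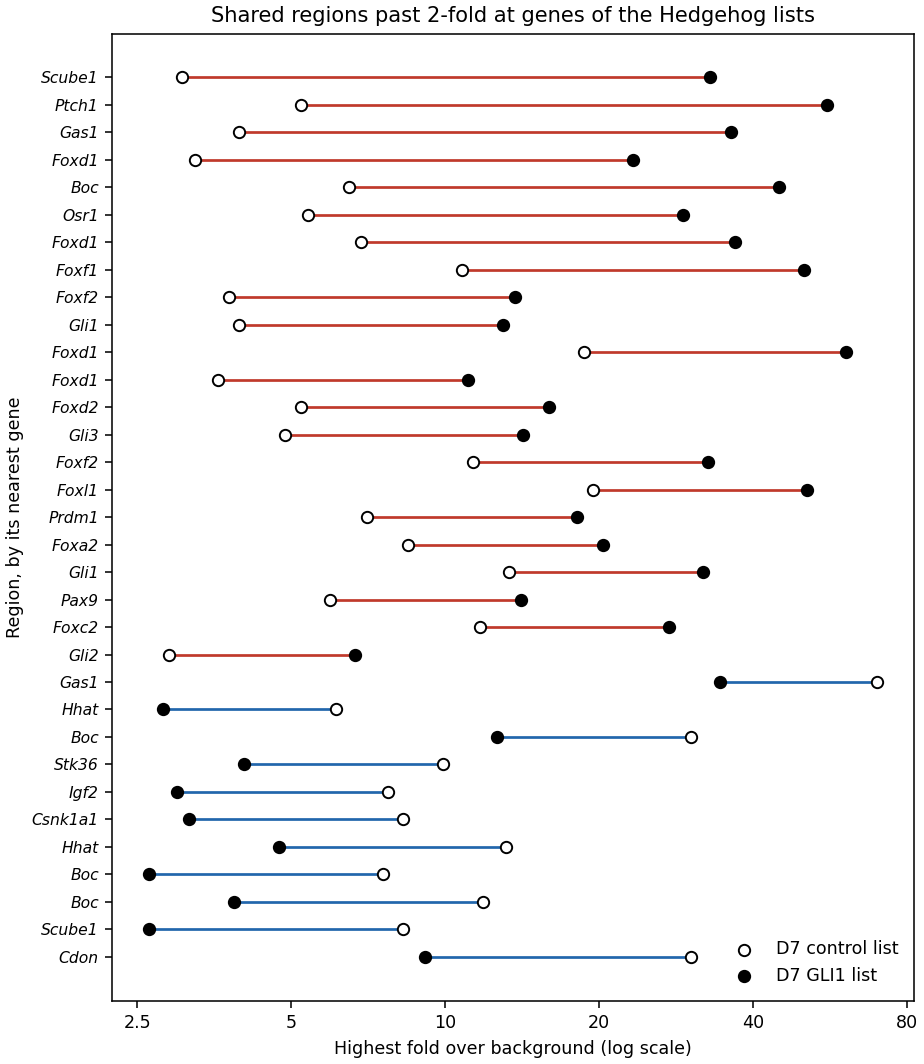
Each line is a shared region past 2-fold whose nearest gene is in a Hedgehog list, from its fold in the D7 control list (open) to its fold in the D7 GLI1 list (filled), on a log scale, in order of the log2 ratio. Red lines are stronger and blue lines weaker with GLI1; Gas1, Boc and Scube1 appear in both colours.

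Of the ligand genes, Shh had 2 shared regions, with folds of 6.66 in control and 5.27 with GLI1 and of 6.30 and 4.91. Neither passed 2-fold. Ihh and Dhh had no shared region.

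At Ptch1, which encodes the receptor, 1 of 6 shared regions was stronger. The region chr13:63572096-63574064 lay at the edge of the gene interval on the side of the transcript start. Its fold was 5.22 in control and 55.8 with GLI1, a 10.7-fold difference (7.49 to 16.9), and its width went from 935 to 1969 bp. It was not in the D5 list. With the mean of the peak folds in place of the highest, its log2 ratio was 2.58 in place of 3.42. A neighbouring region, chr13:63562060-63567137, holds a Ptch1 promoter and had 36.4 and 49.7, and chr13:63567283-63569232 had 58.3 and 59.5. So the large difference lay beside regions that were highly accessible in both lists. Ptch1 also had regions in 1 list only. The strongest with GLI1 only, 68.5 kb from the gene, had 15.4, and the strongest in control only, inside the gene, had 6.84. Hhip, whose product binds Hedgehog ligands, had 1 shared region, at its promoter, with 10.1 and 17.2 (1.71-fold, 1.22 to 2.44). It also had 8 regions with GLI1 only, the strongest inside the gene with a fold of 19.1, and 1 in control only, with 3.24.

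Co-receptor genes had changes in both directions. Gas1 had a stronger region at chr13:60172787-60174482, at the end of the gene away from its start, with 3.96 in control and 36.2 with GLI1 (9.13-fold, 6.06 to 15.7), and its log2 ratio of 3.19 was 2.35 with mean folds. Its promoter region, chr13:60175543-60179099, had 70.0 in control and 34.4 with GLI1 (2.04-fold weaker, 1.71 to 2.44). Boc had a stronger region inside the gene at chr16:44537981-44539029, with 6.48 and 44.9 (6.93-fold, 4.98 to 10.4). Boc was also the nearest gene of 3 weaker regions, with 11.9 and 3.86, 30.2 and 12.6, and 7.56 and 2.63. Cdon, another co-receptor gene, had a weaker region at chr9:35443444-35444523, with 30.2 in control and 9.13 with GLI1 (3.31-fold, 2.44 to 4.69). At Gas1, then, a region with a large gain in fold stood beside a promoter region with a lower fold. At Boc the shared regions nearest the gain had 14.8 and 13.7, and 9.54 and 7.02, neither past 2-fold. Of the weaker Boc regions, 1 lay inside the gene and the others 43.6 and 57.3 kb from it.

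Scube1, of a family of secreted proteins that help release Hedgehog from cells, had a stronger region inside the gene at chr15:83712287-83713820, with 3.06 and 33.0 (10.8-fold, 6.84 to 20.4), and its log2 ratio of 3.43 was 2.19 with mean folds. A second Scube1 region had 8.28 in control and 2.63 with GLI1. The region chr15:83709800-83710862, near the stronger one, had 41.4 in control and 21.6 with GLI1 (ratio 0.52, 0.41 to 0.65), which did not pass 2-fold. Hhat, which encodes the enzyme that palmitoylates Hedgehog ligands, had 2 weaker regions, with 13.1 and 4.74 and with 6.12 and 2.81. In all, the 11 matched genes of the receptor and ligand release list had 40 shared regions, with 4 stronger (10%) and 8 weaker (20%) and a median log2 ratio of −0.25. The weaker count was 5 with the stricter q or equal list lengths and 12 with median centring. This list shares genes, Ptch1, Hhip, Gas1 and Boc among them, with the target list.

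Among genes that carry the signal inside the cell, the GLI genes had the stronger regions. Gli1 had 2 shared regions, with folds of 3.96 in control and 12.99 with GLI1, and of 13.3 and 31.9, and 6 regions found with GLI1 only. Whether these reads come from the endogenous gene or an induced copy was not tested. Gli2, a GLI factor that is mainly an activator, had 1 stronger region of 11, with 2.88 and 6.67. Gli3, which acts mainly as a repressor, had 1 of 3, with 4.86 and 14.2. Its region 514 bases from the gene had 69.5 in control and 54.1 with GLI1 (ratio 0.78, 0.67 to 0.91). Smo, which encodes Smoothened, had 1 shared region with 27.5 and 44.6. Csnk1a1 and Stk36, both kinase genes, had 1 weaker region each, with 8.28 and 3.16 and with 9.90 and 4.04. The transduction list had 4 stronger (9.30%) and 2 weaker (4.65%) of 43 shared regions, and 28 regions with GLI1 only against 10 in control only.

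Forkhead targets had higher folds at their promoters and at nearby regions. At Foxd1, a forkhead gene of stromal progenitors, 4 of 5 shared regions were stronger, and its median log2 ratio of 1.70 was the highest of the 663 genes with at least 5 shared regions. The promoter region had 6.84 in control and 36.9 with GLI1 (5.39-fold, 3.87 to 8.04). Regions farther downstream had 3.60 and 11.1, 18.7 and 60.9, and 3.24 and 23.3. The fifth had 5.40 in control and 3.69 with GLI1. At neighbouring genes the strongest regions of Ankra2 and Btf3 had 54.5 and 42.8, and 23.9 and 18.6, and a weak region of Gm21976 had 4.68 and 5.09.

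Foxf1, Foxc2 and Foxl1 lie side by side on chromosome 8. Foxf1 had 1 shared region, chr8:121082596-121085223, with 10.8 in control and 50.4 with GLI1 (4.66-fold, 3.56 to 6.37). Foxc2 had a stronger region with 11.7 and 27.4 (2.34-fold, 1.75 to 3.21) and Foxl1 one with 19.4 and 51.1 (2.63-fold, 2.11 to 3.33). All 3 regions were also open at day 5. Foxf1 also had regions found with GLI1 only, the strongest 10.9 kb from the gene with a fold of 31.9, and no region in control only. Mthfsd, between Foxf1 and Foxc2, had a shared region with 27.9 in control and 22.8 with GLI1. Its ratio of 0.82 had an interval that included 1 (0.64 to 1.04). A further region inside Mthfsd was found with GLI1 only, with a fold of 4.39. Of 8 shared regions within 100 kb of Foxf1, 3 were stronger, each at a forkhead gene, and 0 were weaker.

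Foxf2, a relative of Foxf1, had both of its shared regions stronger, with 11.3 and 32.6 (2.88-fold, 2.17 to 3.94) and with 3.78 and 13.7 (3.62-fold, 2.27 to 6.48). Foxa2, which acts in floor plate and endoderm, had a stronger promoter region with 8.46 and 20.4 (2.41-fold, 1.72 to 3.51), which widened from 329 to 1621 bp. Foxd2 had 1 stronger region of 6, with 5.22 and 16.0.

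**Figure D4:**
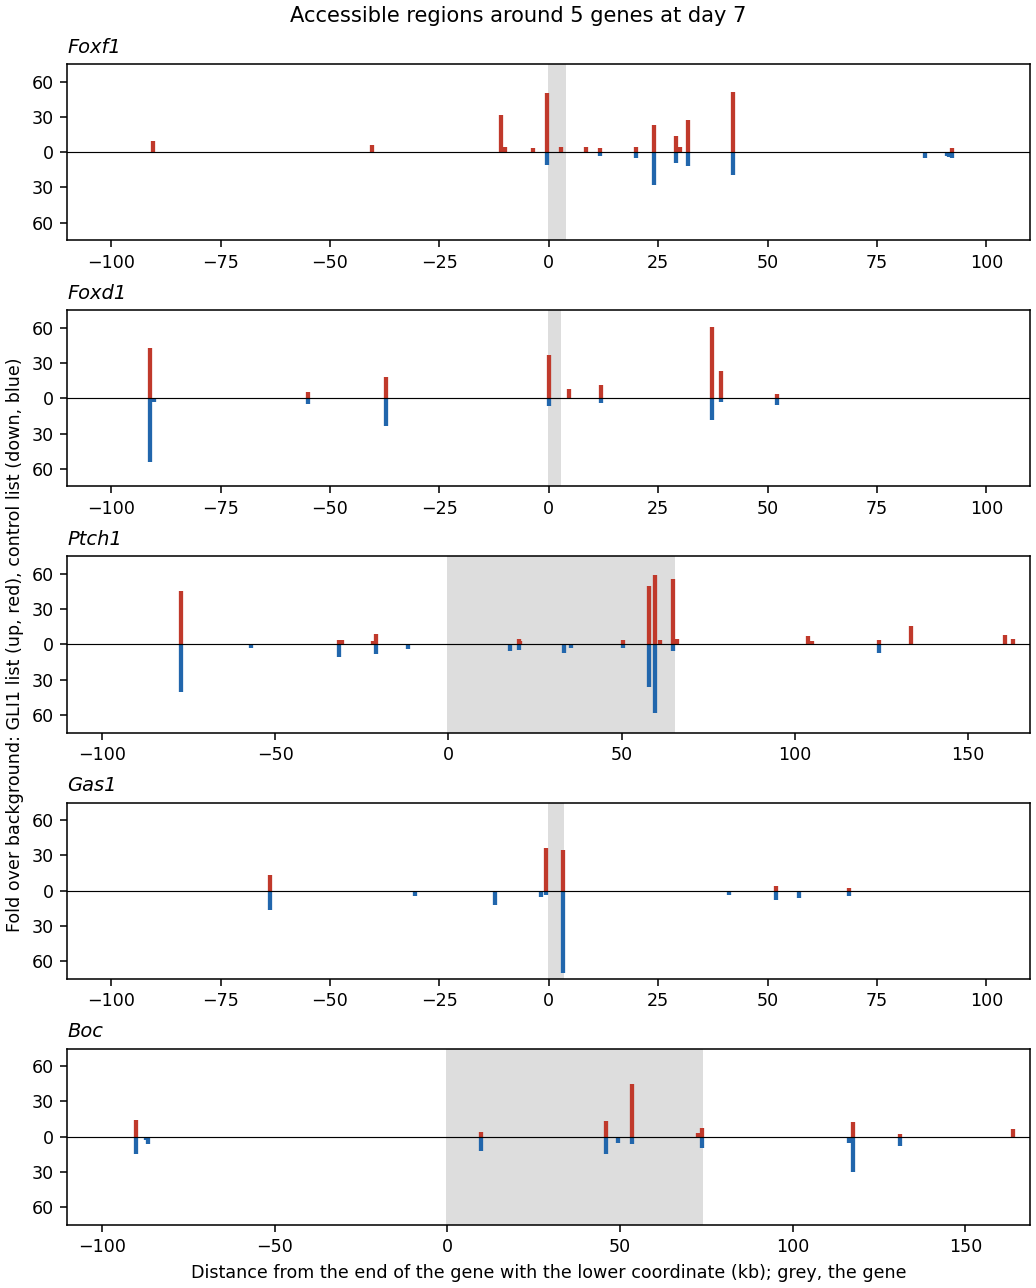
Fold over background of every region in the D7 GLI1 list (red, upward) and the D7 control list (blue, downward) within 100 kb of 5 genes, by distance in kb from the gene end with the lower coordinate; the gene is grey. Foxf1 and Foxd1 show higher bars with GLI1 at and near the gene, Ptch1 a single region with 5.22 and 55.8 beside regions high in both lists, and Gas1 and Boc bars that differ in both directions.

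Of the targets outside the forkhead family, Osr1, a zinc finger gene of the second heart field and other mesoderm, had a stronger region 76.0 kb from the gene, with 5.40 and 29.1 (5.40-fold, 3.72 to 8.54). A region at an end of the gene had 6.12 and 11.2, and all 4 of its shared regions had the higher fold with GLI1. Prdm1, which encodes the repressor Blimp1, had a stronger region at a start inside the gene with 7.02 and 18.1 (2.58-fold, 1.79 to 3.91), while a region 957 bases from the gene interval had 13.1 and 18.4, and Pax9, a paired-box gene, a stronger region inside the gene with 5.94 and 14.0 (2.36-fold, 1.58 to 3.75). Other known targets had no region past 2-fold: the cyclin genes Ccnd1 (median log2 ratio 0.47 over 3 regions) and Ccnd2 (0.13 over 4), Mycn (−0.11 over 8), Bcl2 (−0.41 over 2), Nkx2-2 (−0.08 over 3) and Bmp4 (−0.12 over 2). Igf2 had 1 weaker region of 5, with 7.74 and 2.98.

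The forkhead family outside the target list showed no such excess among shared regions. Its 34 genes had 5 stronger (5.95%) and 6 weaker (7.14%) of 84 shared regions, with a median log2 ratio of 0.02. These genes also had 76 regions with GLI1 only and 42 in control only, against 14248 and 10205 over all genes. Foxp1, a forkhead gene of heart and other tissues, had 2 stronger regions inside the gene, with 14.0 and 39.1 and with 6.84 and 20.2, and 2 weaker ones, with 11.9 and 3.86 and with 7.38 and 3.34. Foxc1 had 1 stronger region (5.40 and 10.9) and 1 weaker (16.9 and 5.27). Foxo3 had a weaker region with 19.1 in control and 3.86 with GLI1. Over the whole family 16 (15.2%) of 105 shared regions were stronger and 6 (5.71%) weaker.

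Second heart field genes had 10 stronger (8.85%) and 7 weaker (6.19%) of 113 shared regions, with a median log2 ratio of 0.20 against 0.10 for all genes. Their list holds Osr1 and 4 forkhead genes described above. Eya1, a transcriptional coactivator of this field, had a weaker region with 12.1 and 3.16. Cardiac transcription factor genes had 12 stronger and 12 weaker (8.89% each) of 135. Nfatc1, an endocardial factor, had a stronger region with 4.86 in control and 17.9 with GLI1, and Prdm16 one with 4.32 and 15.1. Tbx18, a factor of the epicardium and sinus horn, had a weaker region 377 bases from the gene, with 23.8 and 3.86 (6.15-fold, 4.02 to 10.7), and Heyl, a Notch effector gene, one with 28.8 and 5.79.

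Contractile and calcium handling genes had 3 stronger (4.35%) and 4 weaker (5.80%) of 69 shared regions, and 2 and 2 at the stricter q or 3 and 8 with median centring. Cacna1c, a calcium channel gene, had a stronger region with 5.22 and 14.6, and Nebl, a Z-disc gene, a weaker one with 18.5 and 3.51. Slc8a1, the sodium-calcium exchanger gene, had a weaker region with 15.5 and 3.69.

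Lists of other mesoderm derivatives had larger shares of weaker regions than the 6.53% over all genes. Their median log2 ratios were −0.10 (endothelial and blood), −0.12 (paraxial) and 0.11 (smooth muscle and epicardial), against 0.10 over all genes. Endothelial and blood genes had 4 stronger and 10 weaker (13.9%) of 72, with Ets1 at 21.4 in control and 4.21 with GLI1 and Eng, a TGF-beta co-receptor gene, at 19.4 and 3.86. Erg, an ETS factor of endothelium, had a stronger region with 3.60 and 11.4. Paraxial mesoderm and muscle genes had 6 stronger and 12 weaker (15.2%) of 79, with Meox1 at 14.6 and 3.34 among the weaker and the somite gene Uncx at 7.38 and 28.4 among the stronger. Smooth muscle, epicardial and fibroblast genes had 3 stronger and 9 weaker (13.4%) of 67. Pdgfrb, the PDGF receptor beta gene, had a stronger region with 4.86 and 19.5, and Tgfbi a weaker one with 9.36 and 2.46. Tbx18 belongs to the cardiac, paraxial and epicardial lists.

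Neural progenitor genes had 1 stronger (0.893%) and 8 weaker (7.14%) of 112 shared regions. The stronger region was near Nes, which encodes nestin, with 6.12 and 17.4. Weaker regions included those of Sox1 (18.4 and 3.86) and Pax7 (23.9 and 6.85). Pluripotency genes had 5 stronger (11.4%) and 2 weaker (4.55%) of 44, against 3.97% and 6.53% over all genes. Among these were Sall4 at 4.50 and 17.7 and Sox2, a gene also of neural progenitors, at 40.5 and 13.5. At the stricter q this list had 2 stronger and 2 weaker. Primitive streak genes had 1 stronger (3.23%) and 3 weaker (9.68%) of 31, with Snai1, a driver of epithelial to mesenchymal transition, at 43.4 and 10.4. Endoderm genes had 3 stronger and 3 weaker (6.52% each) of 46 shared regions, with Foxa2 above among the stronger. They also had 54 regions with GLI1 only and 19 in control only, against 14248 and 10205 over all genes. Genes of the Notch, BMP, FGF and Wnt pathways had 6 stronger (4.51%) and 8 weaker (6.02%) of 133, but 4 and 2 at the stricter q and 3 and 10 with median centring. Housekeeping genes had 0 of either among 21.

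**Figure D5:**
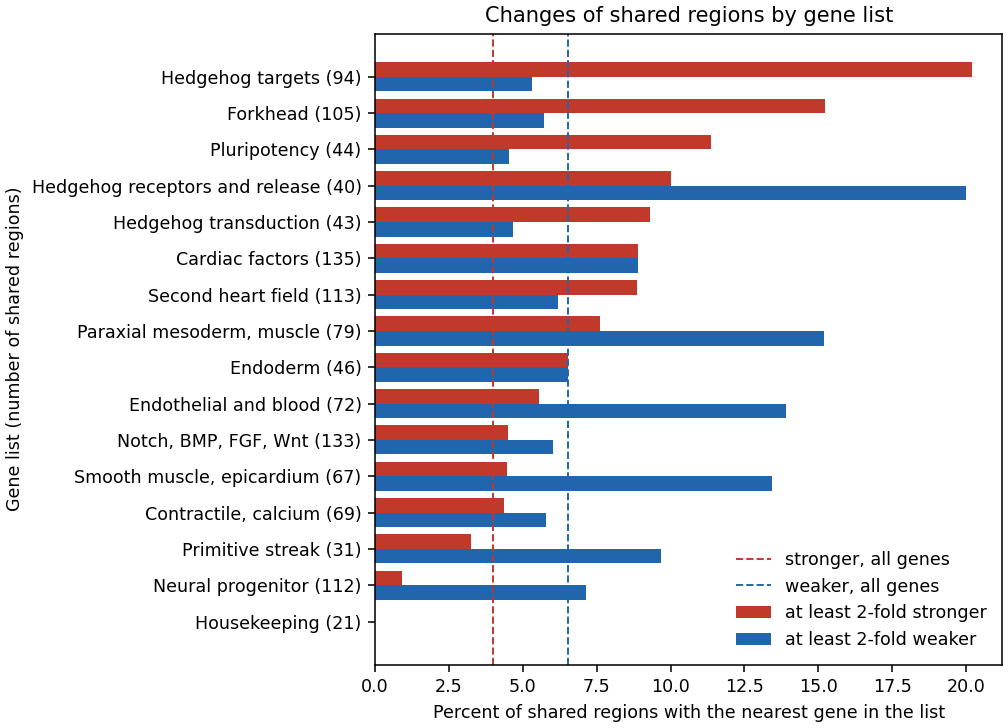
Percent of shared regions at least 2-fold stronger (red) or weaker (blue) with GLI1 for each gene list with at least 20 shared regions (number in parentheses); dashed lines give the same shares for all genes, 3.97% and 6.53%. Hedgehog targets have 20.2% stronger, and Hedgehog receptors 20% weaker.

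Across all genes, 12843 had a shared region, of which 813 (6.33%) had at least 1 stronger, 1233 (9.6%) at least 1 weaker and 156 (1.21%) both. After Foxd1, the highest medians among genes with at least 5 shared regions were those of Pdzrn3 (1.25, 3 of 5 stronger), Dpf1 (1.01, 3 of 5), Intu, a planar polarity effector gene needed for cilia (0.93, 2 of 5), and Dtnb (0.93, 2 of 5). The lowest were Cdk15 (−1.52), Svil (−1.50), the kinesin gene Kif5c (−1.34), Zfp469 (−1.32) and Camk2a (−1.31), each with 3 weaker of 5 regions. Gse1 had the most weaker regions, 9 of 37. Smad3, which carries TGF-beta signals, had 6 weaker and 0 stronger of 11, with a median log2 ratio of −1.005, and Auts2 6 of 16. Mrpl23 had the most stronger regions, 5 of 10.

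The 10 shared regions with the largest ratios, among those with a fold of at least 10 in 1 list, had 2.52 to 6.12 in control and 28.1 to 55.8 with GLI1. The Scube1, Ptch1 and Gas1 regions above were 3 of these 10. The largest was 268 kb from Rfpl4b, with 2.88 and 33.5 (11.6-fold, 7.30 to 22.5). Efna5, which encodes the guidance ligand ephrin A5, held one with 2.52 and 28.1. Others lay in Limch1 (6.12 and 54.6) and Cryl1 (3.78 and 33.4), 71.4 kb from Srbd1 (3.24 and 34.1), 181 kb from Dph6 (4.14 and 37.4) and 208 kb from Tle4, a Groucho corepressor gene (3.06 and 31.6). Of these 10, 3 overlapped D5 regions and 2 were within 1 kb of a gene end. With peaks under a −log10 q of 5 removed, 5 of the 10 were no longer shared, Scube1 among them, while Ptch1 and Gas1 remained shared.

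The 10 with the smallest ratios had 18.7 to 41.4 in control and 2.46 to 4.56 with GLI1. The region 173 kb from Maf, a basic leucine zipper factor gene, had 25.9 and 2.81 (9.23-fold). The highest control fold among them, 41.4 against 4.56 with GLI1, was 619 kb from Cdh5, the VE-cadherin gene, so the nearest gene is a weak guide there. Cdh11 was the nearest gene, at 530 kb, of a further one with 18.7 and 2.46. Cplx2 (22.9 and 2.63), Ttc28 (32.4 and 4.21) and Col25a1 (29.3 and 3.86) held one each, and Mroh9, Skint11, Hpcal1 and Cish were the nearest genes of the rest. None of these 10 was within 1 kb of a gene end, and 1 overlapped a D5 region. At the stricter q, 7 of the 10 were no longer shared.

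Of the regions widened most, that near Tle1, another Groucho corepressor gene, went from 200 to 2307 bp and from a fold of 3.60 to 17.0, and the Tle4 region above from 235 to 2070 bp. Those near Cxcl12, a chemokine gene, and in Clcf1, a cytokine gene, went from 239 to 2155 and from 200 to 1625 bp. The region in Tgfbr3, a TGF-beta co-receptor gene, went from 210 to 1671 bp. Narrowed most were those near Rad51b (1378 to 200 bp) and Skint11 (1279 to 200) and in Cux2 (1871 to 298), Arhgap26 (1386 to 226) and Itprip (1183 to 200).

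Regions of 1 list were mostly weak and narrow. Their median fold was 3.86 with GLI1 only and 3.96 in control only, and the median width was 254 bp in both classes, against 800 bp for shared regions. The strongest with GLI1 only had folds of 62.5 in Il16, 59.7 and 41.8 near Hsd17b3, 54.4 in Nhej1 and 53.0 near Gpbp1, with widths of 1302 to 2332 bp. Strong regions in control only included those in Atp6v1b1 (41.4), Ntn1 (33.7), Bend6 (30.6) and Maats1 (25.7).

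Changes were spread over the genome. Chromosome medians of the log2 ratio lay between 0.06 and 0.13. Of 1189 windows of 1 Mb with at least 8 shared regions, that on chromosome 15 from 56000001 to 57000000, with Has2, the hyaluronan synthase gene, and Sntb1, had the highest median, 1.37, with 5 stronger and 1 weaker of 9. The lowest was that of Wwox and Maf on chromosome 8 from 115000001 to 116000000, −1.10, with 5 weaker of 8. A window on chromosome 1 from 192000001 to 193000000 that holds Hhat had −0.88, with 5 weaker of 15. Across neighbouring shared regions Pearson's r of the log2 ratios was 0.24 at under 2 kb (1616 pairs) and lower at longer distances, a description of regions that share libraries.

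The promoters in changed regions were searched for the GLI consensus GACCACCCA, or TGGGTGGTC on the other strand, in 300 bases around each of 31365 RefSeq starts. It was in 0 of 234 promoters in stronger regions, 0 of 95 in weaker regions, 25 of 12703 (0.197%) in the other shared regions and 80 (0.255%) of all. With at least 8 of 9 letters matched the shares were 8.55% (5.60 to 12.8), 4.21% (1.65 to 10.3), 6.99% and 6.85%. The forkhead core shown above was in 2.99% (1.46 to 6.04) of stronger, 8.42% (8 of 95, 4.33 to 15.7) of weaker, 2.26% of the other shared and 3.71% of all promoters. Median GC was 58.5% in stronger, 54.7% in weaker and 62.7% in the other shared promoters. Promoters in no region had the core in 4.62%, with a median GC of 47.3%. The part of GC in these shares was not tested. Promoters that share a region are not independent, and most changed regions lie outside these windows. The following 30-base pieces show how near-matches, in capitals, look in stronger promoter regions: Foxa2 at chr2:148045511-148045540 on the − strand, Fgf14 at chr14:124192656-124192685 on the − strand and Podxl2 at chr6:88874762-88874791 on the − strand.
Foxa2: tggggaggggTGGGAGGTCggctggcgagg
Fgf14: agtagggactGACCACCCTcacctctgtcc
Podxl2: ctggcgcgggGACCCCCCAggcgccctgtc

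The Foxa2 region had folds of 8.46 and 20.4, the Fgf14 region 3.06 and 11.1, and the Podxl2 region 8.64 and 22.1. Each piece differs from the consensus by 1 letter, and 6.85% of all promoters searched come as near.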

How the data were processed

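Libraries of 6 samples entered this comparison, as 2 peak lists made by the authors. Per the submitters' processing notes, Bowtie2 2.3.2, SAMtools 1.5, Picard and MACS2 2.1.1 were used with mouse build mm10. The deposited lists give for each peak a fold (ratio) over background, a −log10 p, a −log10 q and a score that holds 10 times the −log10 q. The summit offset is a further deposited column. Background and summit reads were recovered from the step between folds and the deposited p, and a Poisson model gave p within 5% in 94.8% (control) and 94.1% (GLI1) of peaks. Lowest summit reads were 13 in both lists; library totals were not used. Peaks were merged, joined and compared in Python, tested on simulated data first. The fold of a joint region is its highest peak fold, and its width the summed length of its regions. Genes came from RefSeq (20661 protein-coding), and 422 of 438 genes in 17 lists matched. The named regions are those of Gli1, Ptch1, Hhip and Foxf1, the most extreme 10 by fold and 5 by width each way, the 5 highest and lowest genes and windows, the strongest 5 of 1 list only, and the extremes of each gene list; all other members of the Hedgehog lists, the other forkhead genes, the genes with most changed regions, the neighbouring genes and the sequences shown were added after values were seen. A few named results are not reported here. Members, lists and rules were chosen with earlier results of these data known. Shares carry Wilson intervals and ratios exact binomial ones, both for counting error only. The alternatives were a −log10 q of at least 5, equal list lengths, median centring, mean folds, single regions, a 1.5-fold limit, reciprocal overlap and 25 kb.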

Additional observations from a re-analysis of the deposited data

How the results depend on the processing

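No paired analysis was possible because the 3 libraries of a group were merged into a single list, and no replicate could be left out. Weaker shared regions outnumbered stronger ones under each alternative run, and GLI1-only outnumbered control-only regions in each of the 3 run for them, but by 1.05 times with equal list lengths (13497 and 12831) against 1.37 times with all peaks. With a 1.5-fold limit there were 3290 stronger and 3362 weaker regions; under the other alternatives stronger regions numbered 714 to 1204. With median centring there were 817 stronger and 2050 weaker. With peaks below a −log10 q of 5 removed, the median log2 width ratio was 0.033 and 51.0% of stronger regions overlapped D5 regions. The median log2 fold ratio was 0.101 with equal list lengths and 0.054 with mean folds. Hedgehog targets had 16 to 19 stronger regions under changes of q, list length, centring and distance, 15 without Foxd1 and 8 without forkhead genes (both chosen after seeing the data); weaker ones numbered 3 at the stricter q, 3 with equal list lengths, 3 within 25 kb and 8 with centring. Weaker regions numbered 7 to 11 for endothelial and blood, 8 to 14 for paraxial, 5 to 9 for smooth muscle and epicardial, 3 to 10 for neural, 5 to 12 for Hedgehog receptor, 2 to 8 for contractile and 2 to 10 for Notch, BMP, FGF and Wnt genes. In that last list the order of stronger and weaker turned at the stricter q (4 and 2), and wider outnumbered narrower regions at that q (874 and 864) and with equal list lengths (1176 and 1116). The named regions past 2-fold kept their direction with mean folds; the causes of these moves were not tested. Of the 29 named shared regions, 14 were not shared at the stricter q, which removes peaks of low fold. Ratios of regions with a mean fold under 4 are limited by the need to pass the caller in both lists, and depth was not varied.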
